A study of Mus musculus with 8 samples.

Results

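The 9 genes described here encode proteins of the tight junction: the claudins Cldn1, Cldn3, Cldn4, Cldn6 and Cldn7, the tetraspan proteins occludin (Ocln) and tricellulin (Marveld2), the junctional adhesion molecule JAM-A (F11r) and the scaffold ZO-1 (Tjp1). They were taken by name from the 18193 genes that the array's annotation pairs with a probe set of 1 gene symbol, and each is represented by its probe set with the highest mean over the 8 arrays. Together they have 17 probe sets of the 45037 in the table. The arrays hold mouse cells of C57BL/6 background that were being reprogrammed in a secondary OSKM system, in which Oct4, Sox2, Klf4 and Myc are switched on by doxycycline. All 4 groups received doxycycline, written in the labels as 2 mg per ml, in a medium for embryonic stem cells that held serum and leukemia inhibitory factor. The groups were CSA at day 6, DMSO at day 6, CSA at day 3 and DMSO at day 3, with 2 arrays each that the series calls independent biological repeats. CSA (cyclosporin A, labelled 10 mM) inhibits the phosphatase calcineurin, which activates NFAT transcription factors, and DMSO is its solvent. The starting cell type is not given in the sources used here.

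Tight junctions seal the space between neighbouring epithelial cells near their apical side. Claudins form the paired strands that close or selectively open this space to ions, occludin and tricellulin join the strands, tricellulin mainly where 3 cells meet, and JAM-A is an immunoglobulin-like adhesion protein. ZO-1 binds the tails of these proteins and ties them to actin. Fibroblasts lack such strands, and cells that reprogram from them pass through a mesenchymal to epithelial transition in which E-cadherin and junction genes are switched on.

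Values are MAS5 log2 signals, on which a difference of 1 is a 2-fold difference, and they are compared within a probe set, not between genes. Over the 27022 probe sets tested, the log2 signals of 2 arrays correlated at 0.968 to 0.974 within a group. Across treatments at 1 day the range was 0.957 to 0.963, and across days 0.918 to 0.943. Among markers of cell types, all 6 of simple epithelium and all 8 of fibroblasts were bright enough to be tested (mean log2 signal of at least 5.37). The pluripotency genes Nanog, Sox2 and Zfp42, the endothelial genes Pecam1, Cdh5 and Emcn, the blood genes Ptprc and Tyrobp and the keratin Krt5 had means over the 8 arrays below that filter. Sox2 is also one of the doxycycline-driven factors. Nanog, not tested for that reason, read 7.20 and 6.21 with CSA at day 6, 7.51 and 7.56 with DMSO at day 6, 1.78 and 1.24 with CSA at day 3, and 3.34 and 5.39 with DMSO at day 3, so all day 6 arrays were above the day 3 arrays. In bulk RNA, fewer cells of a type and less RNA per cell cannot be told apart.

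The 5' sequences of the 9 genes are shown because all 9 were higher at day 6 than at day 3 in DMSO. RefSeq (GRCm38.p6) gave 12 promoter windows of 250 bases before and 50 after a transcription start for the 9 genes. The E-box CAGGTG, searched on both strands, is the core bound by the Snail and ZEB repressors of epithelial genes. It was found in 9 of the 12 windows, which belong to 7 of the 9 genes, Cldn1 and Tjp1 being without it; 20.2% of all 32851 windows and 22.6% of all genes held it. A match is only a run of letters, and no binding was measured. In the labels below, upstream and downstream give the order of a gene's sites along its own strand. The Ocln sites belong to different listed starts. Its upstream site begins at base 8 counted from the start at 100552718, and its downstream site lies 68 bases before the start at 100552498. Capitals mark the 6 bases of the 11 distinct sites, each shown with its surrounding bases, 30 in all, on the gene's own strand:
Cldn3 site (chr5:134986233-134986262, plus strand): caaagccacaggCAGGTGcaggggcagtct
Cldn4 upstream site (chr5:134946931-134946960, minus strand): ctttaactgcagCACCTGtggccgcccttt
Cldn4 downstream site (chr5:134946906-134946935, minus strand): cctttcttgttgCAGGTGcaggcaggaaag
Cldn6 upstream site (chr17:23679260-23679289, plus strand): gggaaacgcacgCAGGTGgctatcgccgca
Cldn6 downstream site (chr17:23679385-23679414, plus strand): aatcttagcagtctcttttgCAGGTGagcc
Cldn7 distal site (chr11:69965312-69965341, plus strand): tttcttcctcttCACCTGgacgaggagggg
Cldn7 proximal site (chr11:69965352-69965381, plus strand): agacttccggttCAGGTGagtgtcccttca
Ocln upstream site (chr13:100552694-100552723, minus strand): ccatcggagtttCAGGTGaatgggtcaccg
Ocln downstream site (chr13:100552549-100552578, minus strand): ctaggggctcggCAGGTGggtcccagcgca
Marveld2 site (chr13:100616911-100616940, minus strand): ccggcggccgcgCAGGTGagtggggccgcg
F11r site (chr1:171437427-171437456, plus strand): agttcggggttgCACCTGcgtacggtgagt

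For Cldn7 and Cldn4, the claudins with the smallest adjusted p between days in DMSO, the 250 bases before a start are given whole. Cldn7 has 2 listed starts, and the 250 bases before its upstream start, which are not printed, held no CAGGTG. In Cldn4 the E-box lies 14 bases before the start, and in Cldn7, before the downstream of its 2 listed starts, 97 and 57 bases before it:
Cldn4 (chr5:134946935-134947184, minus strand): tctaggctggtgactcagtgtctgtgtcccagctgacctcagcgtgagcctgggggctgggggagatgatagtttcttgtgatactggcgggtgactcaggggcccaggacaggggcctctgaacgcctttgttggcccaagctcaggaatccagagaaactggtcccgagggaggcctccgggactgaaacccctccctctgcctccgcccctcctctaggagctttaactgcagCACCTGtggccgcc
Cldn7 (chr11:69965171-69965420, plus strand): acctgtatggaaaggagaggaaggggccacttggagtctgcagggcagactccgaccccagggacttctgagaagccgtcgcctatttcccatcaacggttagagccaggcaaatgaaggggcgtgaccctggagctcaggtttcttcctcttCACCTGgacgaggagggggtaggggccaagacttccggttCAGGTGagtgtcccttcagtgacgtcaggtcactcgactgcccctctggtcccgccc

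Of 6 motifs searched on both strands in the same windows, the GC box GGGCGG was in all 9 genes (38.2% of all genes), CACCC, the core read by Krüppel-like factors, in 5 (59.8%), the E-box CAGCTG in 1 (18.3%), TATAAA in 1 (15.7%) and AACCNGTT, the grainyhead motif, in 0 (2.35%). Cldn4 and Cldn3 are neighbours on chromosome 5, 39279 bases apart at positions 134945123 to 134946934 and 134986214 to 134987476. Ocln (100496504 to 100552718) and Marveld2 (100595957 to 100616971) are neighbours on chromosome 13, and Cldn6 (chromosome 17, 23679348 to 23682446) lies 137 bases from Cldn9. The other 4 are Cldn1 on chromosome 16 (26356645 to 26371839), Cldn7 on chromosome 11 (69964779 to 69967886), F11r on chromosome 1 (171437561 to 171464593) and Tjp1 on chromosome 7 (65296165 to 65527850).

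**Figure D1:**
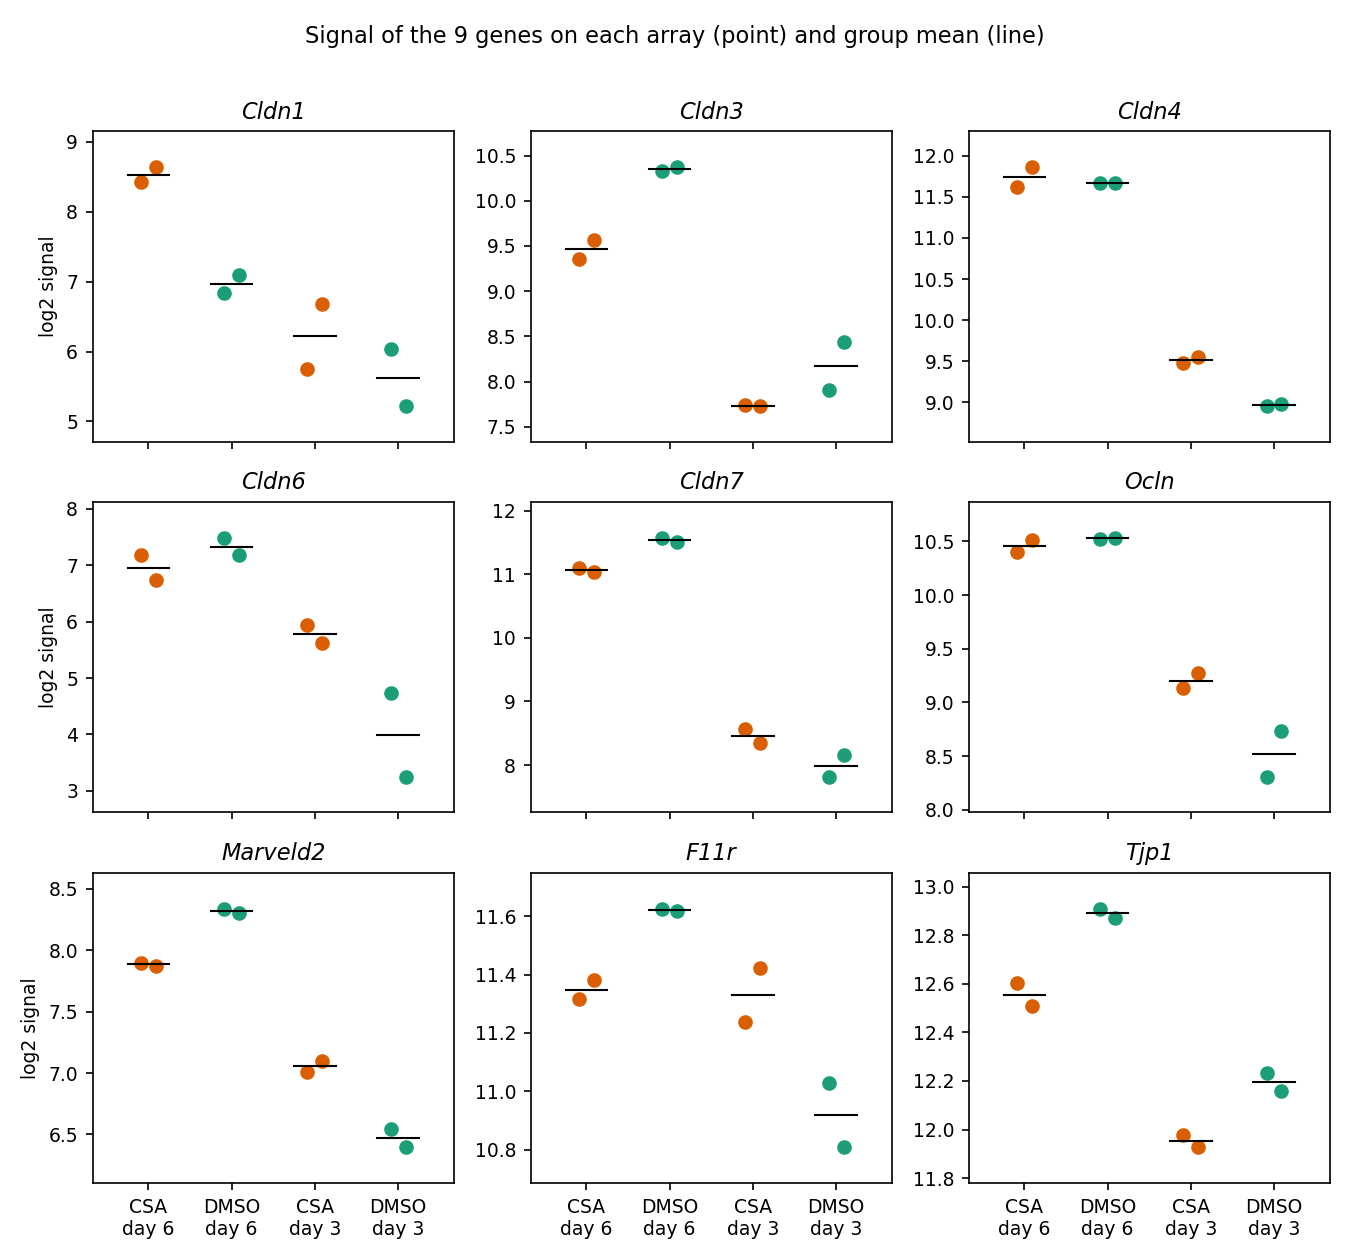
Log2 signal of each gene's representative probe set (vertical axis, own range per panel) in the 4 groups (horizontal axis), with a point for each of the 8 arrays and a line at each group mean. In all 9 panels both DMSO day 6 arrays lie above both DMSO day 3 arrays; in the F11r panel the CSA arrays of the 2 days overlap.

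Cldn7, which sits along the lateral membrane and binds EpCAM, had log2 signals of 11.10 and 11.03 with CSA at day 6, 11.57 and 11.51 with DMSO at day 6, 8.56 and 8.35 with CSA at day 3, and 7.82 and 8.16 with DMSO at day 3. Cldn4, a claudin of simple epithelia, read 11.62 and 11.86 with CSA at day 6, 11.66 and 11.67 with DMSO at day 6, 9.48 and 9.56 with CSA at day 3, and 8.96 and 8.98 with DMSO at day 3. Both genes were lowest in DMSO at day 3 and had no overlap between days. For Cldn7 the CSA arrays were above the DMSO arrays at day 3 and below them at day 6, while for Cldn4 they were above at day 3 and overlapped at day 6.

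Cldn3, like Cldn4 a receptor for the enterotoxin of Clostridium perfringens, read 9.36 and 9.57 with CSA at day 6, 10.33 and 10.37 with DMSO at day 6, 7.74 and 7.73 with CSA at day 3, and 7.90 and 8.44 with DMSO at day 3. Its CSA arrays were below the DMSO arrays at both days, unlike those of its chromosomal neighbour. Cldn1, the claudin needed for the water barrier of the epidermis, read 8.42 and 8.64 with CSA at day 6, 6.84 and 7.10 with DMSO at day 6, 5.76 and 6.68 with CSA at day 3, and 6.04 and 5.22 with DMSO at day 3. It was the claudin with both CSA day 6 arrays well above all other arrays. Cldn6, a claudin of embryonic epithelia and pluripotent cells, read 7.18 and 6.74 with CSA at day 6, 7.48 and 7.17 with DMSO at day 6, 5.94 and 5.61 with CSA at day 3, and 4.74 and 3.25 with DMSO at day 3. Its DMSO arrays at day 3 were below the filter value and differed from each other more than its arrays in any other group.

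Ocln read 10.41 and 10.52 with CSA at day 6, 10.52 and 10.53 with DMSO at day 6, 9.13 and 9.27 with CSA at day 3, and 8.31 and 8.73 with DMSO at day 3. Marveld2 read 7.90 and 7.87 with CSA at day 6, 8.34 and 8.30 with DMSO at day 6, 7.01 and 7.10 with CSA at day 3, and 6.55 and 6.40 with DMSO at day 3. For these 2 related genes the CSA arrays were above the DMSO arrays at day 3 and below them at day 6, by a very small margin in Ocln at day 6. F11r read 11.31 and 11.38 with CSA at day 6, 11.63 and 11.62 with DMSO at day 6, 11.24 and 11.42 with CSA at day 3, and 11.03 and 10.81 with DMSO at day 3. Tjp1 read 12.60 and 12.51 with CSA at day 6, 12.91 and 12.87 with DMSO at day 6, 11.98 and 11.93 with CSA at day 3, and 12.23 and 12.16 with DMSO at day 3. The scaffold gene thus had lower CSA arrays at both days, and F11r had higher CSA arrays at day 3 and lower ones at day 6.

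The day course asked how these genes changed between day 3 and day 6 of reprogramming in each treatment. In DMSO all 9 genes rose, by 0.70 to 3.55 on the log2 scale. Cldn7 rose 11.7-fold, by 3.55 ± 0.13 (adjusted p = 2.1e-08; ± is limma's moderated standard error, 2 arrays per group), Cldn4 6.50-fold, by 2.70 ± 0.10 (2.1e-08), and Cldn3 4.53-fold, by 2.18 ± 0.17 (3.19e-06). Cldn6 rose by 3.33 ± 0.53 (adjusted p = 0.000444), but both its DMSO day 3 arrays were below the filter value, so no fold is given. Its value was 4.08 without DMSO day 3 replicate 1, 2.59 without replicate 2 and 2.33 with signals floored at 5, each past the threshold. Ocln rose by 2.01 ± 0.14, Marveld2 by 1.85 ± 0.22, Cldn1 by 1.34 ± 0.39 (adjusted p = 0.0161), F11r by 0.70 ± 0.09 and Tjp1 by 0.70 ± 0.07. Of the 12529 genes tested 45.7% passed the threshold in this comparison, an adjusted p under 0.05, 26.1% higher at day 6 and 19.6% lower. Both DMSO day 6 arrays lay above both DMSO day 3 arrays in 9 of the 9 genes; such arrays did not overlap in 73% of all genes, 41.2% higher and 31.8% lower. The median over the 9 genes was 2.01, against 0.08 over all genes tested. Quantile normalization would lower the median of all genes by 0.11 in DMSO and 0.10 under CSA.

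Under CSA the day course was positive for all 9 genes, though for F11r the sign turned under 3 alternatives, and 7 passed, where 36.1% of all genes tested passed, 20.2% higher at day 6 and 15.8% lower. Arrays of the 2 days did not overlap in 8 of the 9 genes, F11r being the exception, and in 69.1% of all genes, 39.7% higher and 29.4% lower. Cldn7 rose by 2.61 ± 0.13, Cldn1 by 2.31 ± 0.39 (adjusted p = 0.00104), Cldn4 by 2.22 ± 0.10, Cldn3 by 1.73 ± 0.17, Ocln by 1.26 ± 0.14, Marveld2 by 0.83 ± 0.22 and Tjp1 by 0.60 ± 0.07. Cldn6 was at 1.18 ± 0.53 (adjusted p = 0.12) and F11r at 0.02 ± 0.09 (adjusted p = 0.905, 95% interval -0.19 to 0.22). Cldn1 and Tjp1 apart, the point estimates of the representative probe sets ran lower than in DMSO by 0.45 or more. For Cldn3 this depended on the probe set, as given below. The test of that difference is the one given for the 2 CSA effects below. The Cldn1 call in DMSO ended without DMSO day 3 replicate 2 (0.93, adjusted p = 0.106) or DMSO day 6 replicate 2 (1.21, 0.0927), that of F11r with the mean of its probe sets (0.38, 0.071). The Marveld2 call under CSA ended under quantile normalization (0.54, 0.0885) and without CSA day 3 replicate 1 or either CSA day 6 array (0.0546 to 0.0658), while Cldn6 under CSA passed without either DMSO day 3 array (0.0476 and 0.0332), with the floor at 5 (0.0225), with a pseudocount of 32 (0.0405) and in the fit of only the 4 arrays compared (0.0464).

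**Figure D2:**
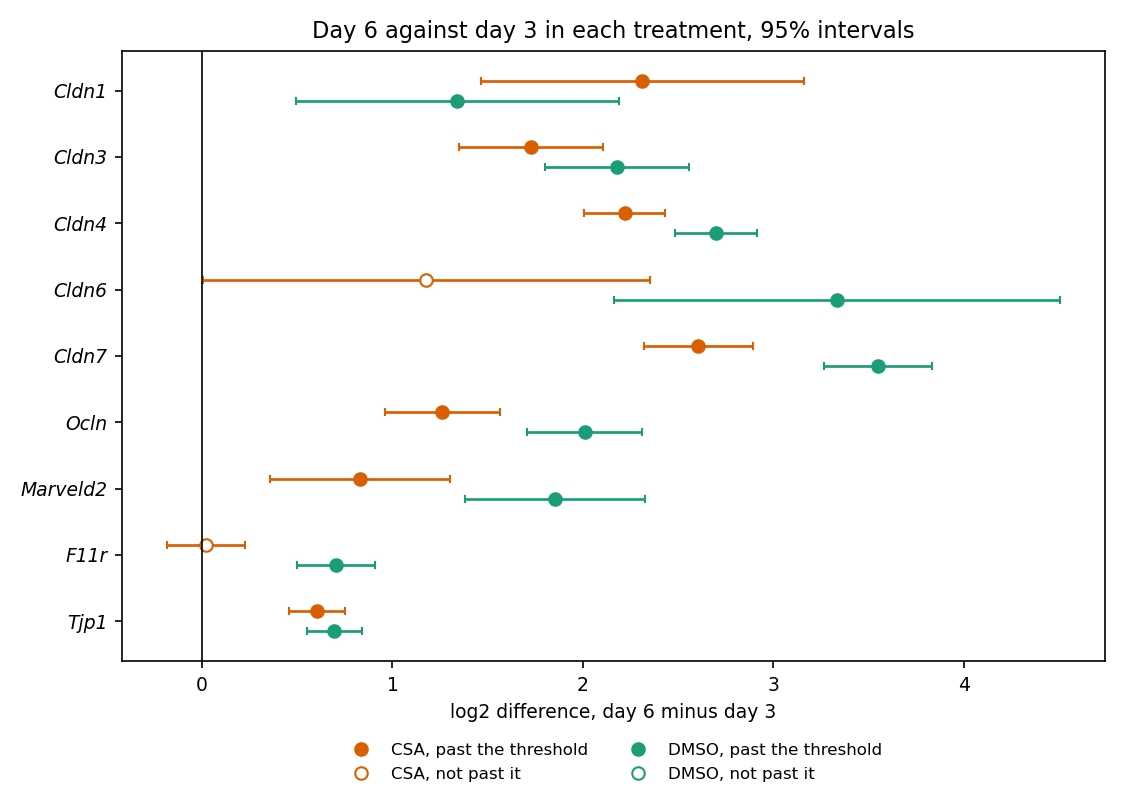
Log2 difference of day 6 minus day 3 for the 9 genes under CSA (orange) and in DMSO (green), with 95% intervals from limma; filled points passed the threshold. All 18 points lie above 0, the CSA point is left of the DMSO point for all genes but Cldn1, and F11r under CSA is at 0.02.

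The first treatment comparison asked what CSA changed at day 3. With CSA 4 of the 9 genes rose and 1 fell, where 12.7% of all genes tested passed, 7.14% of all being higher and 5.52% lower. Occludin rose 1.60-fold, by 0.68 ± 0.14 (adjusted p = 0.0101), Cldn4 1.47-fold, by 0.55 ± 0.10 (0.00508), Cldn7 1.38-fold, by 0.47 ± 0.13 (0.0444), and F11r 1.33-fold, by 0.41 ± 0.09 (0.0177). Tjp1 fell by 0.24 ± 0.07 (adjusted p = 0.0396). The median of the 9 genes was 0.55, against -0.00 over all genes.

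Among the genes that did not pass at day 3, Cldn6 was at 1.78 ± 0.53 (adjusted p = 0.0601), against DMSO arrays below the filter value. It was at 0.78 (0.206) with the floor at 5 and at 1.04 (0.223) without DMSO day 3 replicate 2. Marveld2 was at 0.59 ± 0.22 (0.122), Cldn1 at 0.59 ± 0.39 (0.41) and Cldn3 at -0.44 ± 0.17 (0.146). The 2 CSA arrays did not overlap the 2 DMSO arrays in 8 of the 9 genes, Cldn1 being the exception, but that held for 56.5% of all genes, 28.2% higher and 28.3% lower. Each of the 5 calls ended without CSA day 3 replicate 2 (adjusted p = 0.0509 to 0.211) and without the intensity trend in the prior variance (0.0795 to 0.224). F11r also ended without DMSO day 3 replicate 2 (0.109); Cldn7 ended under 12 and Tjp1 under 10 of 19 alternatives, and without DMSO day 3 replicate 1 Cldn6 (2.53, 0.0145) and Cldn3 (-0.71, 0.0229) passed.

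At day 6 in the same comparison 1 of the 9 genes rose and 3 fell, where 12.5% of all genes tested passed, 6.41% of all being higher and 6.11% lower. Cldn1 rose 2.95-fold, by 1.56 ± 0.39 (adjusted p = 0.0272), with a mean log2 signal of 8.53 with CSA and 6.97 with DMSO. Cldn3 fell by 0.89 ± 0.17 (adjusted p = 0.00833), to 9.46 with CSA against 10.35 with DMSO, Cldn7 by 0.48 ± 0.13 (0.0413) and Tjp1 by 0.34 ± 0.07 (0.00896). Cldn3 and Tjp1 also had lower CSA arrays at day 3, whereas Cldn7 had higher ones. The median of the 9 genes was -0.34, against -0.01 over all genes.

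Marveld2 was at -0.44 ± 0.22 (adjusted p = 0.251) and F11r at -0.27 ± 0.09 (0.0931). Cldn4 was at 0.07 ± 0.10 (adjusted p = 0.731, 95% interval -0.14 to 0.29), Ocln at -0.07 ± 0.14 (0.837, -0.37 to 0.24) and Cldn6 at -0.37 ± 0.53 (0.746, -1.54 to 0.80). The Cldn6 interval is wide and includes a fall of more than 2-fold. The arrays of the treatments did not overlap in 7 of the 9 genes, Cldn4 and Cldn6 being the exceptions, against 58.1% of all genes, 27.8% higher and 30.2% lower. Each of the 4 calls ended without DMSO day 6 replicate 1 (adjusted p = 0.0527 to 0.202), without DMSO day 6 replicate 2 (0.0517 to 0.147) and without the trend (0.0816 to 0.16); leaving out CSA day 6 replicate 1 ended those of Cldn1, Cldn3 and Cldn7 (0.058 to 0.106), and CSA day 6 replicate 2 those of Cldn1, Cldn7 and Tjp1 (0.0637 to 0.178).

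**Figure D3:**
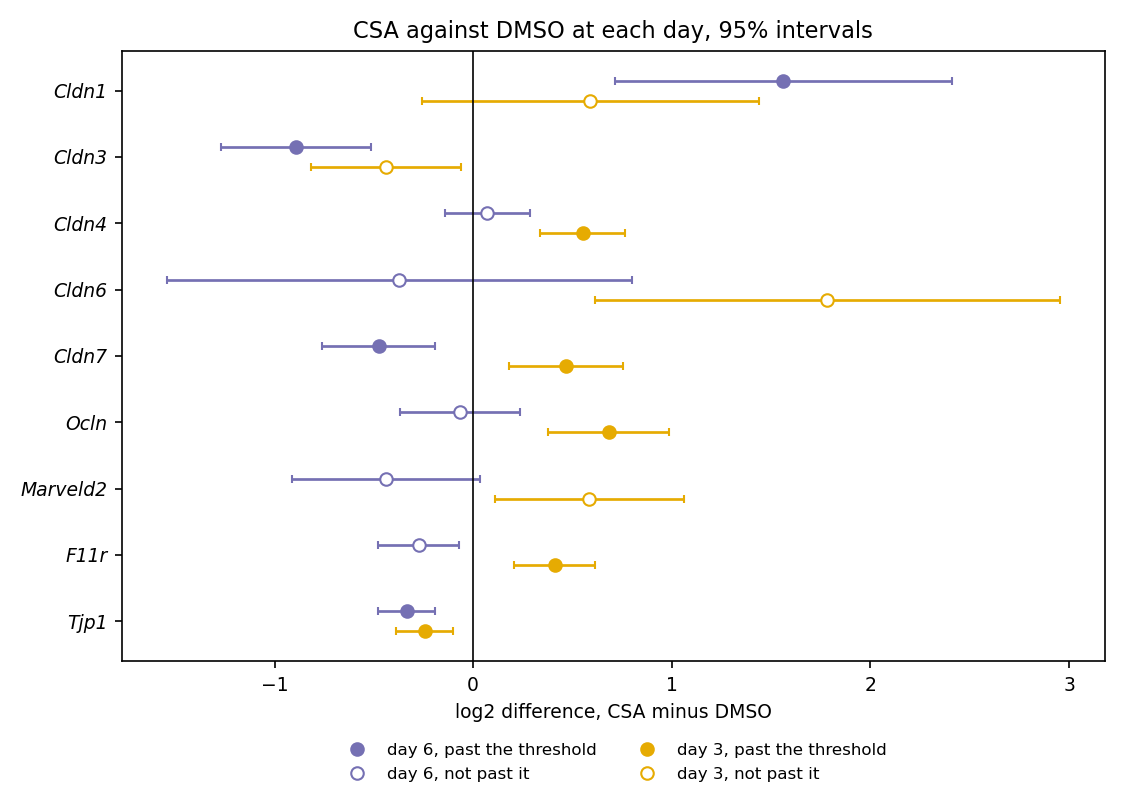
Log2 difference of CSA minus DMSO for the 9 genes at day 6 (purple) and day 3 (yellow), with 95% intervals from limma; filled points passed the threshold. Cldn7 passed on opposite sides of 0 at the 2 days, Tjp1 below 0 at both, and the day 6 point is the higher one for Cldn1 alone.

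The difference between the 2 CSA effects, day 6 minus day 3, passed for Cldn7 at -0.94 ± 0.18 (adjusted p = 0.0173) and for F11r at -0.69 ± 0.13 (0.0166), where 5.79% of all genes passed, 2.36% with a positive and 3.43% with a negative difference. Cldn7 was the gene called at both days in opposite directions. Ocln was at -0.75 ± 0.19 (adjusted p = 0.0573), Cldn4 at -0.48 ± 0.14 (0.0796), Marveld2 at -1.02 ± 0.31 (0.0912) and Cldn6 at -2.16 ± 0.75 (0.146), none of which passed. Cldn3 at -0.45 ± 0.24 (0.356), Tjp1 at -0.09 ± 0.09 (0.662) and Cldn1 at 0.97 ± 0.55 (0.377) did not pass either. The median was -0.69 over the 9 genes and -0.01 over all genes. The CSA comparisons of the 2 days share no array, but each shares its arrays with the day courses, and the difference is also that between the day courses.

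The Cldn7 difference no longer passed without CSA day 3 replicate 1 (adjusted p = 0.08), either DMSO day 6 array (0.0756 and 0.0642), CSA day 6 replicate 2 (0.0617) or the trend (0.153). That of F11r no longer passed without CSA day 3 replicate 2 (0.0806), either DMSO day 6 array (0.063 and 0.0636), the trend (0.175) or with the mean of its probe sets (0.163), whereas Ocln passed under 6 of 18 alternatives, among them the mean of its probe sets (-0.84, 0.0238), the 60th percentile filter (0.0375), the floor at 5 (0.0451), the pseudocount of 32 (0.0475) and leaving out DMSO day 3 replicate 2 (-0.96, 0.0145), and Cldn6 without DMSO day 3 replicate 1 (-2.90, 0.0379).

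Other probe sets of the same genes gave a check within the array. Of the 17 probe sets 15 were tested, and the 2 left out were dim ones of Cldn1. All 4 probe sets of Cldn3 passed at day 6, with CSA effects of -0.83 to -0.89, and 2 of them also passed at day 3 (-0.74 and -0.88, adjusted p = 0.0223 and 0.0164), which the representative did not. The difference of the CSA effects was -0.45 for the Cldn3 representative and -0.57, -0.10 and 0.03 for the others, none past the threshold. Whether Cldn3 rose less under CSA than in DMSO thus depended on the probe set. The second tested probe set of Cldn1 was at 0.68 at day 6 (adjusted p = 0.278), against 1.56 for the representative, so the size of the Cldn1 rise depends on the probe set. At day 3 this second probe set was at 0.62. Its difference of the CSA effects was 0.06 (limma, adjusted p = 0.969), against 0.97 for the representative. The larger CSA effect of Cldn1 at day 6 thus rests on the representative. The second of Ocln was at 0.59 at day 3 (0.0686) and -0.35 at day 6 (0.278). A dim probe set of F11r had positive CSA effects at both days (0.82 and 0.31, neither past the threshold), unlike the representative at day 6.

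**Figure D4:**
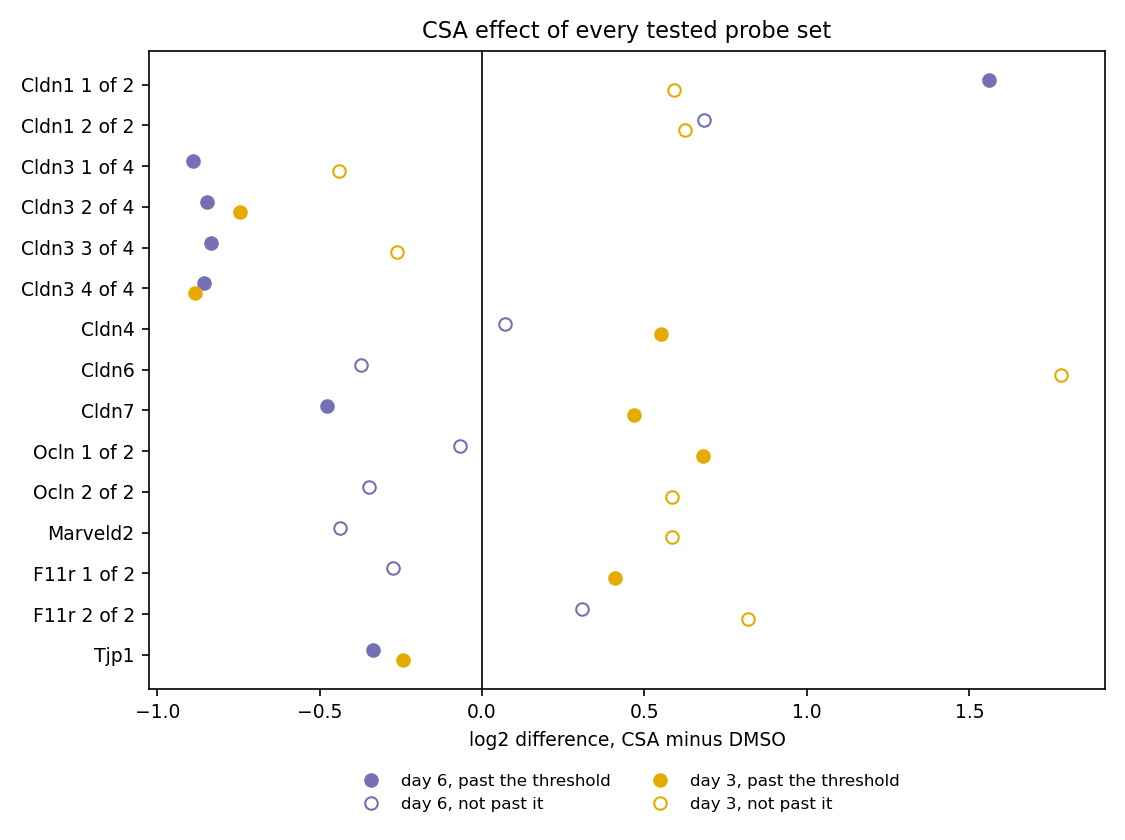
CSA minus DMSO log2 difference (horizontal axis) of all 15 tested probe sets of the 9 genes (rows, brightest first within a gene) at day 6 (purple) and day 3 (yellow); filled points passed the threshold. The 4 Cldn3 probe sets cluster between -0.83 and -0.89 at day 6, and the 2 of Cldn1 are apart at 1.56 and 0.68.

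The other genes of the junction were counted in fixed lists. Over all genes tested, 12.7% passed with CSA at day 3, 12.5% at day 6 and 5.79% in the difference of the CSA effects. Between days 45.7% passed in DMSO and 36.1% under CSA. A count near these shares is no result about its list. Of 19 other claudins 15 were measured and 8 tested. Among these limma called 0 with CSA at day 3 (0 also before adjustment at a p of 0.05) and 0 at day 6 (1 before adjustment), with medians of 0.05 and -0.16. Of the 8, Cldn5, Cldn9, Cldn14, Cldn15 and Cldn22 were dim, with mean log2 signals of 5.59 to 6.28 against the filter value of 5.37. Changes in these could be missed. Between days in DMSO 3 of the 8 rose and 1 fell. Cldn11, known from myelin and the testis, rose by 2.55 ± 0.24 and Cldn23 by 2.50 ± 0.28, and Cldn12 fell by 0.48 ± 0.10. Cldn9, the neighbour of Cldn6, rose by 3.00 ± 0.58, with group means at day 3 below the filter value; it was at 3.86 without DMSO day 3 replicate 1, 2.15 without replicate 2 and 2.37 with the floor at 5, each past the threshold. The same 3 up and 1 down were counted under CSA, with Cldn9 at 2.36 ± 0.58 (adjusted p = 0.0101) in a call that ended without CSA day 6 replicate 2.

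Of 8 other membrane proteins of the junction, 0 passed at day 3 with CSA (limma, 0 also at an unadjusted p under 0.05; median 0.12) and 1 rose at day 6 (median -0.01): the adhesion molecule Jam2, by 0.65 ± 0.14 (adjusted p = 0.0166). Jam2 fell between days, by 1.77 ± 0.14 in DMSO and 0.88 ± 0.14 under CSA, and its difference of CSA effects passed at 0.90 ± 0.20 (0.0342). With the mean of its probe sets neither CSA call of Jam2 held (0.52, 0.127 at day 6; 0.92, 0.0945 for the difference). In DMSO Ildr1, a protein of tricellular junctions, rose by 1.76 ± 0.32. In all, 3 rose and 1 fell between days in DMSO and 2 rose and 1 fell under CSA. Ildr2 and Esam were among those that rose in both treatments. The limma calls of Ildr2 ended with the mean of its probe sets (0.10, adjusted p = 0.666 in DMSO and 0.22, 0.335 under CSA). Those of Esam ended under quantile normalization (0.41, 0.0652 in DMSO and 0.29, 0.218 under CSA), among other alternatives.

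Of 14 scaffold and plaque proteins 2 rose with CSA at day 3 (median 0.13), the polarity scaffold Patj by 0.68 ± 0.13 (adjusted p = 0.00761) and afadin (Afdn) by 0.41 ± 0.10 (0.0185). That count is near the 12.7% of all genes that passed. Both also passed in the difference of the CSA effects, Patj at -0.80 ± 0.18 and Afdn at -0.60 ± 0.13. At day 6, 1 rose (median -0.06): Mpdz, a multi-PDZ scaffold, by 0.54 ± 0.14, a call that ended with the mean of its probe sets (0.35, 0.258). Between days 7 rose and 1 fell in each treatment; cingulin (Cgn) rose by 1.05 ± 0.17 in DMSO, a call that ended with the mean of its probe sets (0.77, adjusted p = 0.0531), and by 0.71 ± 0.17 under CSA.

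Of 12 apical polarity proteins 2 rose with CSA at day 3 (median 0.07) and 3 fell at day 6 (median -0.08). Over all genes 12.7% passed at day 3 and 12.5% at day 6. Crb3, the epithelial Crumbs protein, rose by 0.45 ± 0.11 (adjusted p = 0.0217) at day 3, fell by 0.66 ± 0.11 (0.00298) at day 6, and passed in the difference at -1.11 ± 0.15 (0.00304). Its representative may read other genes too, and its other probe set gave -0.24 at day 6 (0.359) and -0.78 in the difference (0.0551), neither past the threshold. Dlg1 rose by 0.36 ± 0.08 at day 3, Llgl2 fell by 0.50 ± 0.11 and Pard6g by 0.45 ± 0.12 at day 6, and Llgl2 also passed in the difference at -0.76 ± 0.16. Between days 6 rose in DMSO, and 2 rose and 1 fell under CSA.

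Adherens junction genes went both ways, 2 up and 1 down of 10 with CSA at day 3 (median 0.04) and 1 up and 3 down at day 6 (median -0.16). E-cadherin (Cdh1) passed in the difference at -0.79 ± 0.09 (adjusted p = 0.00171), and EpCAM, the partner of Cldn7, fell by 0.69 ± 0.14 (0.0108) at day 6. The nectin Nectin3 rose by 0.53 ± 0.08 at day 3 and 0.61 ± 0.08 at day 6, and Nectin2 fell by 0.47 ± 0.11 and 0.44 ± 0.11, though the mean of its probe sets was at 0.10 at day 3 and -0.33 at day 6 (adjusted p = 0.0827). Between days 5 rose in DMSO and 4 under CSA, Epcam by 1.98 ± 0.14 and 1.65 ± 0.14.

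Transcription factors and splicing factors known to act on epithelial junction genes were listed in 2 groups. The shares over all genes were 12.7% with CSA at day 3, 12.5% at day 6, 45.7% between days in DMSO and 36.1% under CSA. Of 6 repressors 1 rose with CSA at day 3 (median 0.12), Zeb1 by 0.63 ± 0.14, and 2 rose at day 6 (median 0.45), Snai2 by 0.59 ± 0.12 (adjusted p = 0.00919, on a probe set that may read other genes too) and Zeb1 by 0.53 ± 0.14 (0.0328). With the mean of its probe sets Zeb1 was at 0.37 (0.458) at day 3 and 0.06 (0.936) at day 6, and without multi-gene probe sets Snai2 was at 0.46 (0.304) at day 6, none past the threshold. Between days Snai2, Twist1 and Zeb1 rose and Twist2 fell in DMSO. Under CSA 4 rose, which were Snai2, Twist1, Zeb1 and Zeb2. Of these limma calls under CSA, that of Snai2 ended without multi-gene probe sets (0.69, adjusted p = 0.0561). Those of Zeb1 (0.66, 0.0863) and Zeb2 (0.86, 0.0616) ended with the means of their probe sets, and that of Twist1 held under all alternatives. Of 10 activators 3 rose at day 3 with CSA (median 0.48): Ehf by 1.19 ± 0.13 (0.000256), Grhl1 by 1.13 ± 0.31 (0.0394) and the splicing factor Esrp2 by 0.55 ± 0.12. Limma called 0 at day 6, where 3 were at an unadjusted p under 0.05 (median 0.03). In the difference Esrp2 passed at -0.88 ± 0.17 and Ehf at -0.91 ± 0.18. With the means of their probe sets neither passed there (Esrp2 -0.24, 0.587; Ehf -0.59, 0.0865), nor did Esrp2 at day 3 (0.27, 0.31). Between days 8 rose in DMSO, among them Esrp1 by 2.65 ± 0.19, and 5 rose and 1 fell under CSA; Klf4, a member of this list, is also one of the doxycycline-driven factors.

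In the CSA comparisons most named calls of these lists ended when some 1 array was left out. Those of Ehf and Nectin3 held at day 3 (2 of 11), those of Cdh1, Crb3 and Nectin3 at day 6 (3 of 11) and those of Cdh1 and Crb3 in the difference (2 of 8); between days 26 of 28 held in DMSO and 19 of 26 under CSA.

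**Figure D5:**
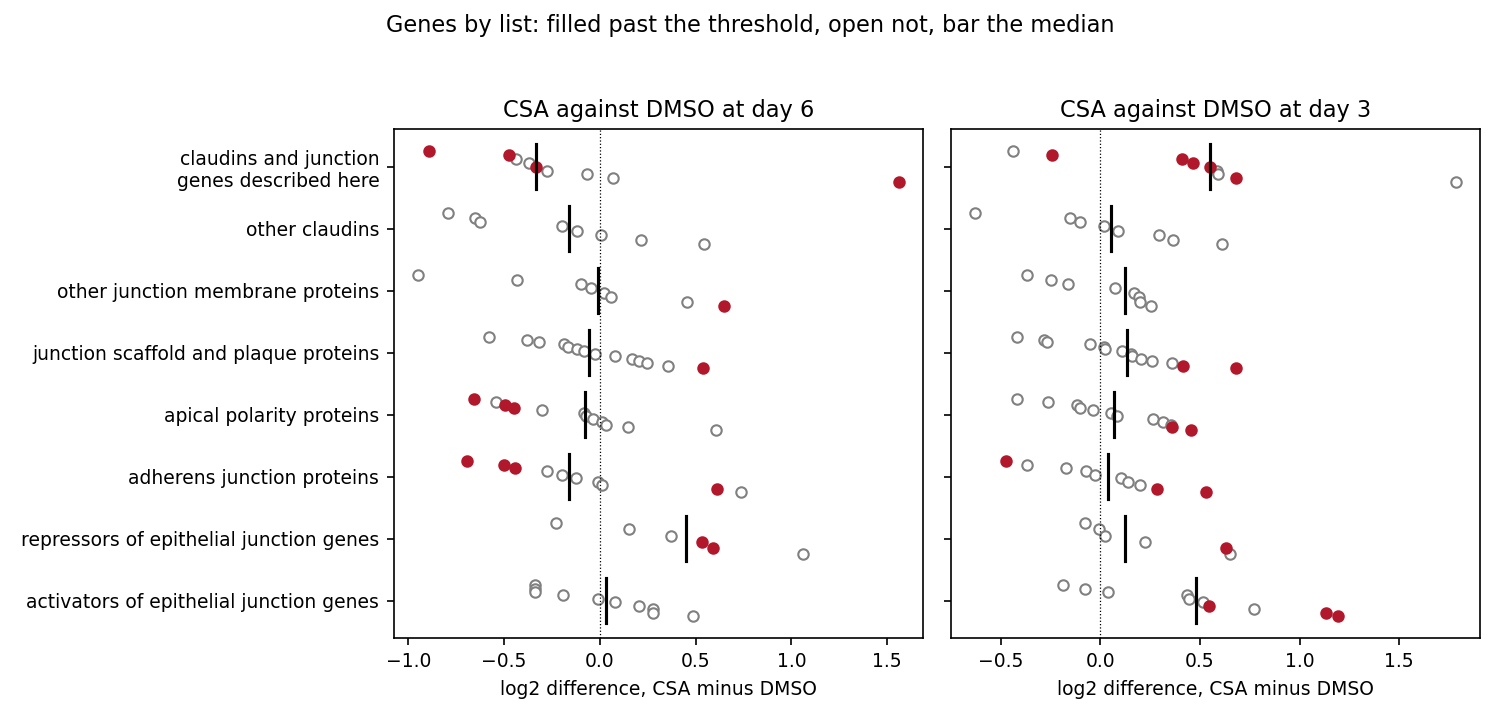
CSA minus DMSO log2 difference (horizontal axis) at day 6 (left) and day 3 (right) for each tested gene of the lists (rows); filled points passed the threshold and bars are medians. The median of the 9 genes is 0.55 at day 3 and -0.34 at day 6, and that of the repressors 0.45 at day 6.

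Marker lists were read beside these results, where 12.7% of all genes passed with CSA at day 3 and 12.5% at day 6. They are not independent of the lists above. Cdh1 and Epcam, among the 4 simple epithelial markers that fell at day 6, are also adherens junction genes. Esam is both an endothelial marker and a junction membrane protein. The summed signal of the 6 simple epithelial markers was 26958 to 27424 with CSA against 36933 to 39179 with DMSO at day 6, and 27385 to 27570 with CSA against 23023 to 24144 with DMSO at day 3, where 4 fell at day 6, and 2 rose and 1 fell at day 3. Krt7 and Krt18 went the other way at day 6, with CSA arrays above the DMSO arrays, neither past the threshold. Sums weigh the brightest genes most. These were Krt8 here (mean log2 signal 14.02), Dcn among fibroblast markers (13.67) and Krt14 among keratinocyte markers (12.03). For the 8 fibroblast markers it was 26822 to 26919 with CSA against 32246 to 32800 with DMSO at day 6, with 1 down, and 20288 to 20493 with CSA against 20535 to 22150 with DMSO at day 3, with 1 up and 2 down. Of the fibroblast markers 7 rose and 1 fell between days in DMSO. The keratinocyte markers summed to 5295 to 5382 with CSA against 3737 to 3930 with DMSO at day 6, and 6678 to 7157 with CSA against 4572 to 4670 with DMSO at day 3, with 2 of 5 up at each day. Of the tested endothelial markers 0 of 3 passed at day 3 and 1 rose at day 6, of the blood markers limma called 0 of 4 at both days (0 also before adjustment), and of the pluripotency markers 0 of 6 passed at day 3 (3 at an unadjusted p under 0.05) and 1 fell at day 6. Pou5f1 (Oct4), a pluripotency marker here, is also a doxycycline-driven factor. It read 9.08 and 9.21 with CSA and 10.31 and 10.10 with DMSO at day 6. The part of these cell types in the junction results was not tested.

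For each of the 7 genes called in a CSA comparison, the 2 tested genes outside the 9 with the most similar profile were found by the root mean square difference of log2 signals centred over the 8 arrays. Cldn4 was nearest to fibronectin (Fn1, 0.11) and Scara3 (0.13), and Cldn7 to the Wnt regulator Dkk2 (0.24) and the receptor Pdgfrb (0.27), while their own spread about the mean was 1.25 and 1.56. Cldn3 was nearest to Rab17, an epithelial trafficking GTPase (0.13), and Mpped2 (0.14), and Ocln to the choline transporter-like Slc44a2 (0.11) and the insulin receptor Insr (0.12). Cldn1 was nearest to Creb3l1 (0.29) and Ifi27 (0.35), with an own spread of 1.13. F11r, with an own spread of 0.26, was nearest to Tmem43 (0.05) and Bach1 (0.06), and Tjp1 to Ptov1 (0.06) and Esyt3 (0.06).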

How the data were processed

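Total RNA of 8 cultures was labelled with the 3' IVT Express kit and hybridised to Affymetrix arrays, per the labels' protocols. What the authors deposited is a log2 signal for each probe set on each array; the submitters' processing notes name MAS5 without a version. Detection calls, the scaling target and scan batches were not used. The 2% trimmed mean of the anti-logged signals was 496.8 to 497.5 on each array, and medians ran from 6.15 to 6.53 log2.

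Probe sets with a mean at or above the 40th percentile (27022) were fitted with limma 3.58.1 in R 4.3.3, 1 mean per group over all 8 arrays (4 residual degrees of freedom). The prior variance followed intensity (eBayes, trend). All p-values are two-sided and adjusted by Benjamini and Hochberg's method across every tested probe set; 0.05 was the threshold. The values were log2 as deposited, so the pseudocount was 0. The code was tested on simulated data.

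The 9 genes and the lists were chosen with earlier results of these data known. Named genes are the 9, up to 4 called genes with the smallest p per list and comparison, and the 2 nearest genes of each called one. Cldn25 counts as not measured, since RefSeq gives that name to Cldnd1. Promoters came from RefSeq's table for GRCm38.p6. Alternatives covered normalization, filter, prior, pseudocount, floor, probe set choice, samples in the fit, replicate block and leaving out each array. The main fit did not pair arrays by replicate number. Deviations correlated at -0.0034 to 0.0343 between groups, so no strong shared replicate effect was seen. Such correlations cannot show whether the repeats were run as pairs.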

Additional observations from a re-analysis of the deposited data

Results flagged for a closer look

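The CSA effect of 2 genes differed between the days by limma's test of the difference itself. For Cldn7 the effect at day 6 minus that at day 3 was -0.94 on the log2 scale (adjusted p = 0.0173), with CSA effects of -0.48 at day 6 and 0.47 at day 3. For F11r it was -0.69 (adjusted p = 0.0166), with CSA effects of -0.27 at day 6, which did not pass on its own, and 0.41 at day 3. The groups of 2 arrays are too small for a search for single outlying arrays.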

How the results depend on the processing

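Calls between days mostly held under the alternatives, and each CSA call of the 9 genes was lost under at least 1 of them. Over 45 values of the 9 genes, 836 alternative values gave 751 with the same direction and side of the threshold, 64 that lost a call, 16 that gained 1 and 5 with a turned sign. Of the 9 genes, 5 were called at day 3, 4 at day 6 and 2 in the difference of the CSA effects; without the trend in the prior variance 0 were called in each of these 3 comparisons, where limma with the trend had 8, 5 and 6 at an unadjusted p under 0.05. At day 3 the count was 3 under quantile normalization, without the filter and in the fit of only the 4 arrays compared. Leaving out 1 array gave 0 to 5 at day 3, 0 to 4 at day 6, 0 to 3 for the difference, 8 to 9 for the days in DMSO and 6 to 8 under CSA. Over all genes tested, the counts without the trend were 274 at day 3 (1587 with it), 423 at day 6 (1569), 0 for the difference (726, and 2856 at an unadjusted p under 0.05 with the trend) and 2941 for the days under CSA (4519), and over the other lists together 1 (11), 2 (11) and 0 (8) in the first 3. Leaving out 1 array gave 643 to 1627, 687 to 1715, 256 to 610 and 3008 to 4716 genes in the same 4 comparisons, and 2 to 10, 3 to 13 and 2 to 7 in the lists for the first 3. The sign turned for F11r with the mean of its probe sets (0.0169 for CSA at day 6 and -0.22 for the days under CSA), for F11r between days under CSA without CSA day 3 replicate 1 or CSA day 6 replicate 2 (leaving out 1 array gave -0.0737 to 0.110), and for Cldn4 with CSA at day 6 without CSA day 6 replicate 2 (-0.0504 to 0.193 over the arrays left out), none of them called. With averaged probe sets it turned for Nectin2 with CSA at day 3 (0.10) and Pard6g between days under CSA (-0.00999). The cause was not tested. With the replicate number as a block, 5, 4, 3, 9 and 7 of the 9 genes were called in the comparisons at day 3, at day 6, of the difference and between days in DMSO and under CSA: Ocln joined the difference (adjusted p = 0.0376), and at day 3 Cldn6 (0.0417) took the place of Cldn7 (0.0533). The labels give the replicates only a number, so whether the design is paired is not known. At the stricter filter Cldn1 and Cldn6 were not tested. The tests rest on 4 residual and 7.27 prior degrees of freedom.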
